A study of Mus musculus with 6 samples.

Results

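C/EBP and NF-κB transcription regulators were examined as 10 genes of the deposited colon expression table, taken by gene symbol: the C/EBP genes Cebpa, Cebpb and Cebpd, the NF-κB subunit genes Nfkb1, Nfkb2, Rela and Relb, the inhibitor gene Nfkbia, and the genes of the nuclear IκB proteins, Nfkbiz and Bcl3. All 10 were found among the 18477 genes of the table, and all 10 passed the filter on low counts, which left 14579 genes for testing. RNA was sequenced from colon tissue of 6 male C57BL/6 mice, 6 to 8 weeks old when bought, with 1 library per mouse. All 6 mice drank water with 2% (w/v) dextran sulfate sodium, DSS, which damages the lining of the colon, for 7 days. The DSS group (n = 3) received PBS by gavage and the DSS+BV group (n = 3) received the gut bacterium *Bacteroides vulgatus* (*B. vulgatus*) by gavage, in both groups once a day for 14 days with DSS from day 8. Both groups had colitis induced, so the comparison is between DSS with and without the bacterium and not with healthy colon.

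NF-κB proteins are dimers that wait in the cytoplasm, bound by IκB proteins, until signals from TNF, IL-1, Toll-like or lymphotoxin receptors release them to the nucleus. Their activity is therefore set largely by protein location and not by the amount of subunit mRNA, although NF-κB induces the genes of several of its own members and inhibitors as feedback. C/EBP proteins are bZIP factors that bind DNA as dimers. C/EBPα is linked to differentiated and myeloid cells, whereas C/EBPβ and C/EBPδ are induced by IL-6, IL-1 and IL-17 and act with NF-κB on acute phase, chemokine and antimicrobial genes in inflamed mucosa.

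Library totals lay between 15293276 and 17254343 expected counts. Normalised expression is given as CPM, counts scaled by the TMM-adjusted library total, with the values of single mice always in the order of replicates 1, 2 and 3, and fold changes are DSS+BV against DSS from the quasi-likelihood test in edgeR, adjusted by Benjamini-Hochberg over all tested genes. A gene was called at an adjusted p-value under 0.05 with an absolute log2 fold change over 1. By average-linkage clustering over all tested genes, DSS+BV 1 grouped with DSS 1 and DSS 3, while DSS 2 grouped with the remaining DSS+BV libraries. The libraries thus did not part by treatment. Values without DSS 2 and DSS+BV 1 are given as descriptions only. Leaving out the libraries that lay with the other group tends by construction to widen differences, though not for each gene. The tissue was colon by its markers, since Epcam was between 1264 and 1749 CPM, Vil1 between 680 and 1076 CPM and Cdx2 between 39.9 and 327 CPM over the 6 libraries.

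Of the 10 regulators, Cebpb and Cebpd had the lowest fold changes. Each DSS+BV mouse had less Cebpb and Cebpd than any DSS mouse, at 2.49-fold and 2.13-fold lower fitted levels, whereas Cebpa and the 4 NF-κB subunit genes had groups that overlapped. None of the 10 genes was called, beside 0.0892% of all tested genes, all of them lower. At an unadjusted p-value under 0.05, 2 of the 10, Cebpb and Cebpd, were lower and 0 were higher, beside 9.12% of all tested genes lower and 3.4% higher. Groups that did not overlap were seen for 3 of the 10 in the lower direction, Cebpb, Cebpd and Nfkbia, beside 11.3% of all tested genes, and for 0 in the higher direction, beside 6.37%. The log2 fold change was below 0 for 8 of the 10, beside 51.5% of all tested genes. Its median over the 10 was -0.19, and that of all tested genes was -0.01. The 10 genes were chosen with earlier results of these data known, so these counts are descriptions only. With DESeq2 in place of edgeR, 1 of the 10 was called, Cebpb, beside 1.78% of genes called lower and 0.291% called higher by that tool.

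**Figure D1:**
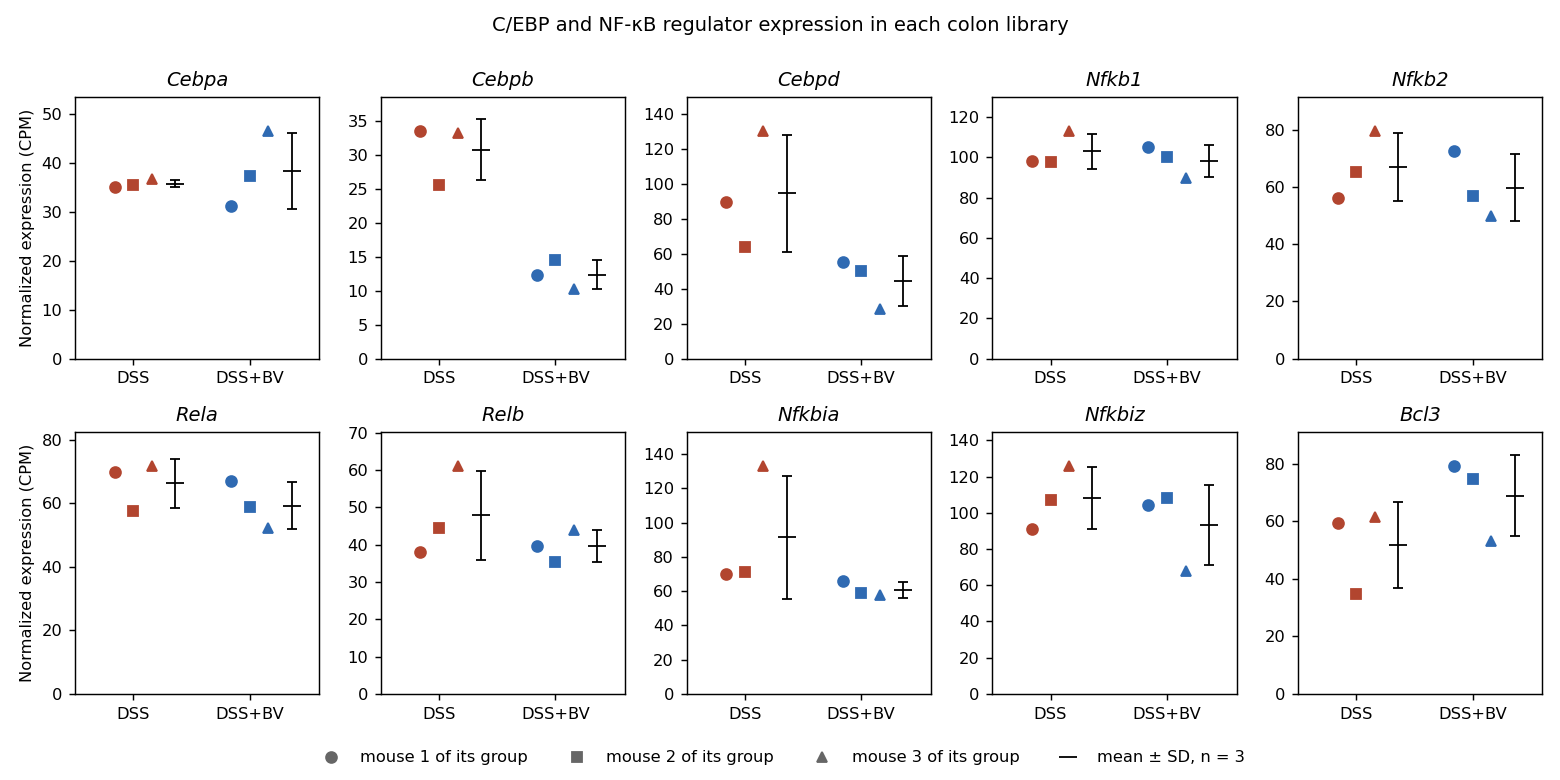
Normalised expression of the 10 regulator genes (y axes, CPM from 0) in the 3 DSS and 3 DSS+BV colon libraries, with 1 point per mouse and the mean ± SD of each group. Cebpb and Cebpd lie lower in all 3 DSS+BV mice, while Nfkb1, Rela and Cebpa overlap and DSS 3 stands highest for most genes.

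Promoter sequences are shown for the C/EBP gene with the widest gap between groups, for the C/EBP gene whose groups overlapped, and for the inhibitor that NF-κB itself induces. They are the 250 bases before the start site in RefSeq (GRCm38.p6), 5′ to 3′ on the strand of the gene, with capitals marking matches to the motifs searched on both strands. The Cebpb window lies at chr2:167688665-167688914 (plus strand), Cebpa at chr7:35119043-35119292 (plus strand) and Nfkbia at chr12:55492648-55492897 (minus strand).
Cebpb: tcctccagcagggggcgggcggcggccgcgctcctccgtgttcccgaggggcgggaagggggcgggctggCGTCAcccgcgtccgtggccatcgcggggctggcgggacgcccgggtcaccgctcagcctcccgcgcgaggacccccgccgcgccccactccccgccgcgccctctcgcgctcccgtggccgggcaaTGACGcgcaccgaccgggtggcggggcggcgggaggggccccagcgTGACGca
Cebpa: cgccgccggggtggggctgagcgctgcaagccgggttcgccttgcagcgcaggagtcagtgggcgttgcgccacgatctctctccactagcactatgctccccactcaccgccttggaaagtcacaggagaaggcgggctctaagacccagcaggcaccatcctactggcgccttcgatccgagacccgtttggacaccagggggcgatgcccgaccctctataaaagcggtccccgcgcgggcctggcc
Nfkbia: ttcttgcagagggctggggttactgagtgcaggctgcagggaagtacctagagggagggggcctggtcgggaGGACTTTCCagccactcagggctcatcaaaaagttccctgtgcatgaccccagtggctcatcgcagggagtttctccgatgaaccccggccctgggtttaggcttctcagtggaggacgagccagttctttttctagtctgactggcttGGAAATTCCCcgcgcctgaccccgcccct
The motifs were the standard NF-κB consensus, the shorter NF-κB-like GGNNTTTCC, the C/EBP-like TTGCNNAA, TGACG, the half-site of the CRE element, and the STAT-like TTCNNNGAA. The first 2 motifs overlap each other, and each match to both was marked once.

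The Nfkbia window held 1 match to the NF-κB consensus, GGGAATTTCC on the opposite strand at positions -29 to -20 from the start site, which also matched GGNNTTTCC, and a second match to the shorter motif, GGACTTTCC at -178 to -170. Of the 32851 promoter windows in the RefSeq table, 3.9% held the consensus and 4.93% the shorter motif. The Cebpb window held TGACG at 3 places, starting at -180, -53 and -7, where 17.8% of windows hold it at least once, and the Cebpa window held none of the 5 motifs. TTGCNNAA, in 9.56% of windows, and TTCNNNGAA, in 7.02%, were found in none of these 3 windows. Windows were given for 6 of the 10 genes, the others being Bcl3, Rela and Nfkb2. Cebpd, Nfkb1, Relb and Nfkbiz were not matched. The first of 3 Nfkb2 windows matched the NF-κB consensus between -39 and -29 and again between -11 and -2, the Bcl3 window held GGGGTTTCC on the opposite strand at -104 to -96, and the Rela window held none of the motifs. A match is a stretch of letters and says nothing of binding in these mice.

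Cebpb (Entrez gene 12608), a single-exon gene at chr2:167688915-167690418 in GRCm38, encodes C/EBPβ, a factor of acute phase and macrophage gene induction. It was at 33.6, 25.6 and 33.3 CPM with DSS alone, against 12.3, 14.5 and 10.2 CPM with DSS+BV. The highest DSS+BV mouse was well under the lowest DSS mouse, and the spread within each group was small against the gap. The mean was 30.8 ± 4.51 CPM without and 12.4 ± 2.14 CPM with the bacterium (SD, n = 3 each). The log2 fold change was -1.32 (standard error 0.20, 95% interval -1.80 to -0.83, unadjusted p = 0.000413 and adjusted p = 0.123 in the edgeR test). By unadjusted p-value Cebpb ranked 48 among all 14579 tested genes. Its log2 fold change lay between -1.44 and -1.19 with 1 library left out in turn, and was -1.41 without DSS 2 and DSS+BV 1. DESeq2 gave -1.30 with an adjusted p-value of 1.62e-05.

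Cebpd (Entrez gene 12609, chr16:15887286-15891031) encodes C/EBPδ, which is held low at rest and induced rapidly by cytokines through STAT3 and NF-κB. It was at 89.5, 63.9 and 130 CPM with DSS alone, against 55.1, 49.8 and 28.1 CPM with DSS+BV. The groups did not overlap, but DSS 2 and DSS+BV 1 were close to each other and DSS 3 and DSS+BV 3 lay at the ends. The log2 fold change was -1.09 (standard error 0.34, 95% interval -1.91 to -0.28, unadjusted p = 0.0159 and adjusted p = 0.332 in the edgeR test). Without DSS 3 it was -0.79, with an unadjusted edgeR p-value of 0.0552, and without DSS 2 and DSS+BV 1 it was -1.48. With DESeq2 the adjusted p-value was 0.0932. Within each group Cebpd varied more between mice than Cebpb, with an SD of log2 CPM of 0.51 among DSS and 0.52 among DSS+BV mice, against 0.22 and 0.25 for Cebpb.

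Cebpa (Entrez gene 12606, chr7:35119293-35121928) encodes C/EBPα, a factor of terminal differentiation in epithelial, fat, liver and myeloid cells. It was at 35.1, 35.5 and 36.6 CPM with DSS alone, against 31.1, 37.2 and 46.5 CPM with DSS+BV. The 3 DSS mice were nearly equal, and the DSS+BV mice lay on both sides of them. Its log2 fold change was 0.10 (95% interval -0.32 to 0.51, edgeR adjusted p = 0.838), and it was -0.061 without DSS+BV 3. Of the other C/EBP genes, Cebpg, which encodes a partner without a strong activation domain, was at 117, 125 and 122 CPM with DSS alone, against 137, 137 and 132 CPM with DSS+BV. The groups did not overlap, but the log2 fold change was 0.16 (edgeR adjusted p = 0.587). The stress-induced Ddit3 had a log2 fold change of -0.18 (edgeR adjusted p = 0.791), and Cebpe, a factor of granulocyte maturation, had 22 counts over all 6 libraries and did not pass the filter.

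The balance of Cebpa to Cebpb within a library does not depend on the scaling between libraries. Per kilobase of transcript, Cebpa was at 0.599, 0.794 and 0.631 times the level of Cebpb in DSS 1, 2 and 3, and at 1.45, 1.47 and 2.60 times in DSS+BV 1, 2 and 3. Cebpb was thus the more abundant in every DSS mouse and Cebpa in every DSS+BV mouse. The log2 ratio averaged -0.58 ± 0.22 for DSS mice and 0.82 ± 0.48 for DSS+BV mice (mean ± SD of 3 each). The difference was 1.40 (two-sided exact permutation test, p = 0.1, 0.4 after Benjamini-Hochberg adjustment over 4 ratios). A p-value of 0.1 is the smallest that 3 mice against 3 can give. With 1 library left out, the difference lay between 1.12 and 1.55.

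**Figure D2:**
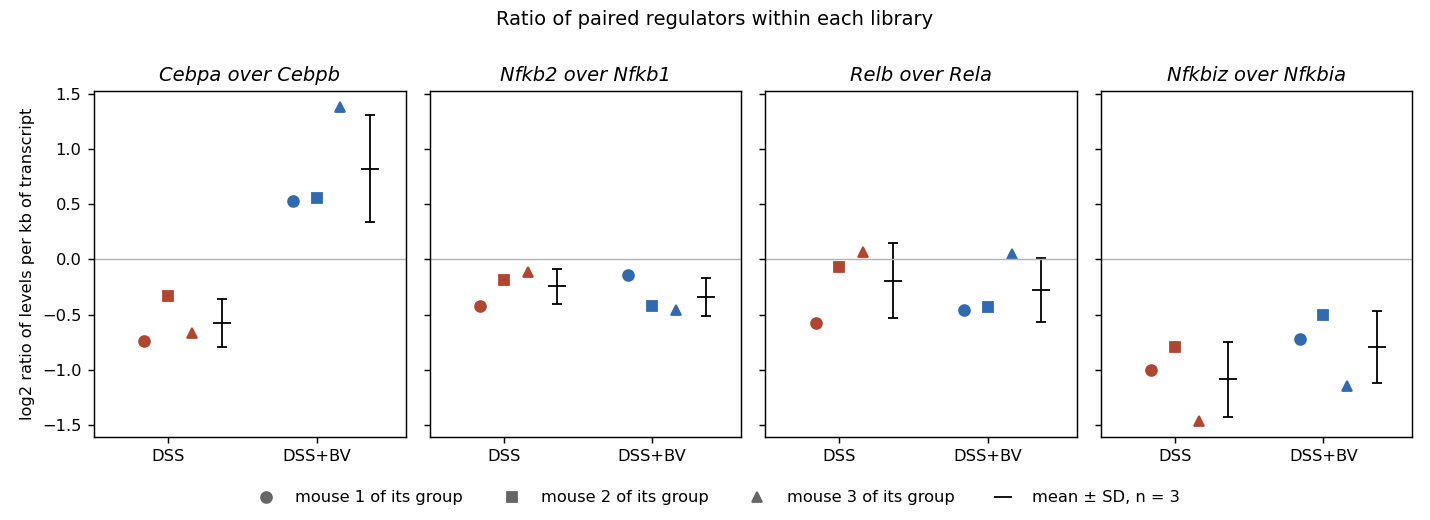
Log2 ratio of the levels per kilobase of transcript of 4 pairs of regulators (y axis) in each DSS and DSS+BV library, with 1 point per mouse and the mean ± SD (n = 3). Cebpa over Cebpb lies below 0 in all DSS mice and above 0 in all DSS+BV mice, while the NF-κB pairs overlap.

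The canonical NF-κB subunit genes had groups that overlapped. Rela (Entrez gene 19697, chr19:5637483-5648130), the main activating subunit of the canonical pathway, was at 69.8, 57.5 and 71.6 CPM with DSS alone, against 66.8, 58.7 and 52.1 CPM with DSS+BV. Nfkb1 (Entrez gene 18033, chr3:135584655-135691547), whose protein is processed to the partner of RelA, was at 98.2, 97.6 and 113 CPM and at 105, 100.3 and 89.7 CPM in the same order. The mice of both groups were interleaved for each of these genes. The log2 fold change was -0.16 for Rela (95% interval -0.52 to 0.20, edgeR adjusted p = 0.678). That of Nfkb1 was -0.07 (95% interval -0.37 to 0.24, edgeR adjusted p = 0.857), and 0.0068 without DSS 3.

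The noncanonical pair, in which RelB joins the processed product of Nfkb2 after lymphotoxin or CD40 signals, overlapped as well. Nfkb2 (Entrez gene 18034, chr19:46304320-46312385) was at 56.0, 65.3 and 79.7 CPM with DSS alone, against 72.6, 57.0 and 49.8 CPM with DSS+BV. Relb (Entrez gene 19698, chr7:19606217-19629438) was at 38.0, 44.5 and 61.0 CPM and at 39.6, 35.4 and 43.9 CPM in the same order. DSS 3 was the highest library for both genes. Their log2 fold changes were -0.16 (95% interval -0.63 to 0.31, edgeR adjusted p = 0.757) and -0.27 (95% interval -0.76 to 0.22, edgeR adjusted p = 0.614). Without DSS 3 they were -0.02 and -0.06. For all 4 subunit genes the whole 95% interval lay under an absolute log2 fold change of 1.

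Within a library, Nfkb2 was at 0.747, 0.877 and 0.922 times the level of Nfkb1 per kilobase in DSS 1, 2 and 3 and at 0.905, 0.744 and 0.728 times in DSS+BV 1, 2 and 3. Relb was at 0.670, 0.950 and 1.05 times the level of Rela in DSS 1, 2 and 3 and at 0.728, 0.740 and 1.04 times in DSS+BV 1, 2 and 3. The groups overlapped for both ratios. The differences in log2 ratio were -0.10 for Nfkb2 over Nfkb1 (exact permutation test, p = 0.5) and -0.09 for Relb over Rela (exact permutation test, p = 0.9), with adjusted values of 0.667 and 0.9.

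The inhibitor gene Nfkbia (Entrez gene 18035, chr12:55489410-55492647) encodes IκBα, which retains NF-κB in the cytoplasm and is among its most direct targets. It was at 70.1, 71.4 and 133 CPM with DSS alone, against 66.0, 58.7 and 57.7 CPM with DSS+BV. The groups did not overlap, but DSS 1 and DSS 2 lay just above the DSS+BV mice and DSS 3 far above all others. The log2 fold change was -0.59 (standard error 0.27, 95% interval -1.23 to 0.05, unadjusted p = 0.0651 and adjusted p = 0.428 in the edgeR test). Without DSS 3 it was -0.22 (edgeR adjusted p = 0.818), so the size of the difference rested on that mouse. The other classical inhibitor genes had log2 fold changes of -0.06 for Nfkbib and -0.48 for Nfkbie, with edgeR adjusted p-values of 0.927 and 0.695.

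The nuclear IκB genes Nfkbiz and Bcl3 act on NF-κB already bound to DNA. Nfkbiz (Entrez gene 80859, chr16:55811375-55838899) encodes IκBζ, an IL-1- and IL-17-induced activator of antimicrobial and chemokine genes. It was at 91.3, 107 and 126 CPM with DSS alone, against 104, 108 and 67.9 CPM with DSS+BV. Only DSS+BV 3 was under the range of the DSS mice. Its log2 fold change was -0.21 (95% interval -0.73 to 0.31, edgeR adjusted p = 0.712), and -0.02 without DSS+BV 3. The level of Nfkbiz per kilobase relative to Nfkbia in the same library overlapped between the groups (difference in log2 ratio 0.30, exact permutation test, p = 0.4, adjusted 0.667).

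Bcl3 (Entrez gene 12051, chr7:19808462-19822770) encodes a partner of NF-κB homodimers that can activate or repress. It was at 59.3, 34.6 and 61.4 CPM with DSS alone, against 79.1, 74.6 and 53.0 CPM with DSS+BV. It had the highest fold change of the 10, but DSS+BV 3 lay within the range of the DSS mice. The log2 fold change was 0.41 (standard error 0.26, 95% interval -0.22 to 1.04, edgeR adjusted p = 0.554). It was 0.20 without DSS 2, the lowest library, and 0.10 without DSS 2 and DSS+BV 1. Nfkbid, of the same group of nuclear IκB genes, was between 2.86 and 5.61 CPM in all libraries, with a log2 fold change of 0.03 (edgeR adjusted p = 0.977).

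**Figure D3:**
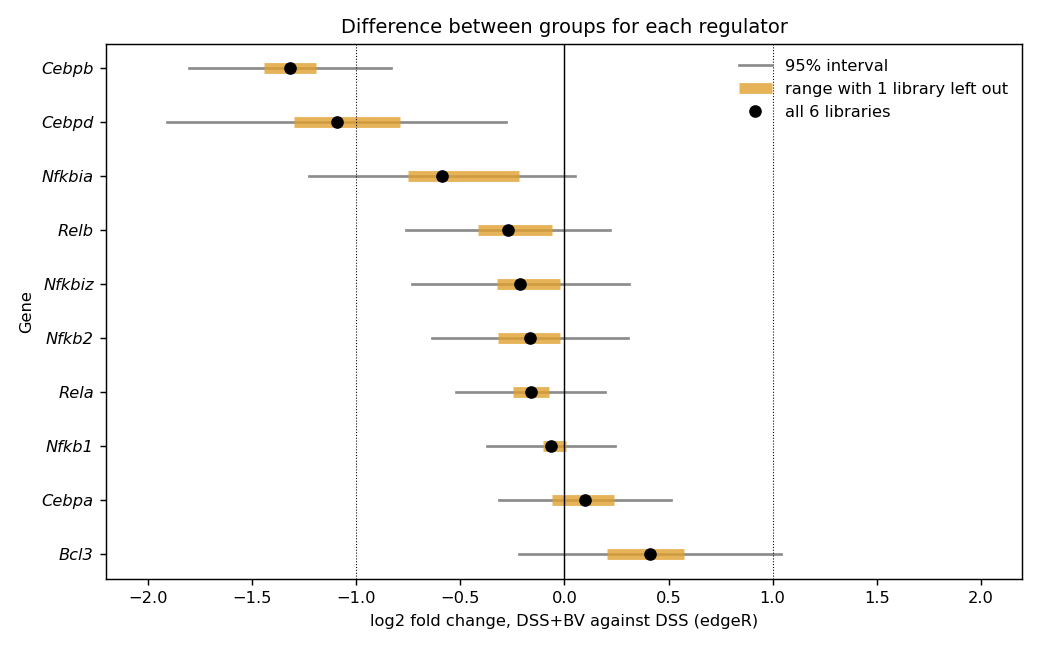
Log2 fold change of each regulator, DSS+BV against DSS (x axis), with its 95% interval (grey line) and the range with each of the 6 libraries left out in turn (broad bar); dotted lines mark the fold threshold. The intervals of Cebpb and Cebpd lie below 0, and those of the other 8 genes include 0.

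Several regulators were highest in the same mouse. DSS 3 was the highest DSS library for 9 of the 10 genes and the highest of all 6 for 7, and DSS+BV 3 was the lowest DSS+BV library for 8 and the lowest of all 6 for 7. The fold changes above therefore partly rest on the mice at the ends. Without DSS 3 the log2 fold change of Cebpb was -1.26, that of Cebpd -0.79 and that of Nfkbia -0.22, and without DSS+BV 3 they were -1.19, -0.85 and -0.55.

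Levels of different genes were compared as CPM per kilobase of the longest principal transcript in GENCODE M21. Averaged over the 6 libraries, Nfkbia was the most abundant regulator at 48.2 ± 18.0 CPM per kilobase (SD over 6 libraries of both groups), followed by Bcl3 at 32.6 ± 8.62. Nfkbiz, Nfkb1 and Rela were at 24.5 ± 4.73, 24.5 ± 1.93 and 23.1 ± 2.86, then came Nfkb2, Relb and Cebpd at 20.2 ± 3.59, 19.8 ± 4.15 and 18.5 ± 9.58, and Cebpb and Cebpa were lowest at 14.4 ± 7.04 and 14.1 ± 1.95. The ranges of all neighbours in this order overlapped, although Rela was above Nfkb2 and Cebpd above Cebpb in all 6 libraries. The order depends on the transcript model. With the shorter RefSeq transcript of Cebpd, 2260 bases in place of 3746, its level was 30.7, and with the union of all annotated exons as length that of Nfkb1 was 8.35. In the DSS mice Cebpb was at between 17.03 and 22.34 CPM per kilobase and in the DSS+BV mice between 6.81 and 9.66. Cebpd averaged 25.2 ± 8.93 CPM per kilobase in DSS mice, next to Nfkb1 at 25.0, and 11.8 ± 3.82 in DSS+BV mice (SD, n = 3 each), where Cebpb and Cebpd had the lowest means of the 10.

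Whether counting used strand is not given in the sources used here, and exons of some regulators overlap a gene on the opposite strand in GENCODE M21. Tmem189 shares 312 bases with Cebpb and had a log2 fold change of 0.02 (edgeR adjusted p = 0.956). Spidr shares 562 bases with Cebpd and had -0.60 (edgeR adjusted p = 0.340), at 32.2, 22.4 and 31.9 CPM with DSS alone and 19.7, 16.9 and 20.3 CPM with DSS+BV, which did not overlap. Psd shares 299 bases with Nfkb2 and had -0.74 (edgeR adjusted p = 0.368). Their part in the counts of the regulators was not tested.

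Genes that carry signals to these factors were examined in lists. All lists were chosen with earlier results of these data known. Their counts beside the shares of all tested genes are therefore descriptions and not tests. Of 26 adaptors and kinases of NF-κB activation, none was called, and the median log2 fold change was 0.03. At an unadjusted p-value under 0.05, 0 were lower and 1 was higher, beside 9.12% and 3.4% of all tested genes. The higher gene was Chuk, which encodes the kinase IKKα, at 82.5, 93.3 and 86.0 CPM with DSS alone, against 98.2, 122 and 112 CPM with DSS+BV. All DSS+BV mice were above all DSS mice, with a log2 fold change of 0.34 (edgeR adjusted p = 0.383). Traf3, Ticam1 and Chuk were the 3 genes of this list whose groups did not overlap, all higher, beside 6.37% of all tested genes. The myeloid adaptor gene Card9 had the lowest fold change, -1.34 (edgeR adjusted p = 0.436). It was at low levels, 3.35, 2.42 and 6.52 CPM with DSS alone, against 2.84, 1.40 and 0.632 CPM with DSS+BV. Its groups overlapped, with DSS 3 and DSS+BV 3 at the ends.

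Of 13 negative regulators, 1 was lower at an unadjusted p-value under 0.05, beside 9.12% of all tested genes. This was Zc3h12a, which encodes an RNase that degrades cytokine mRNAs. It was at 74.9 ± 7.33 CPM (SD) with DSS alone and 48.6 ± 13.3 CPM with DSS+BV (n = 3 each; log2 fold change -0.63, edgeR adjusted p = 0.356). The median of the list was -0.29, and -0.07 without DSS+BV 3. The remaining subunit gene Rel, active mainly in lymphocytes and myeloid cells, was at 56.5, 20.6 and 68.2 CPM with DSS alone, against 39.2, 25.2 and 17.8 CPM with DSS+BV. Its groups overlapped (log2 fold change -0.82, edgeR adjusted p = 0.523). With Nfkbib, Nfkbie and Nfkbid it made a list of 4, of which 0 were called and 0 had an unadjusted p-value under 0.05.

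The 8 tested inputs of the noncanonical pathway had a median of -0.56 on the log2 scale. That median was -0.02 without DSS 3 and -1.55 without DSS+BV 1. Of these 8 genes 0 were called, 0 had an unadjusted p-value under 0.05 and 0 had groups without overlap. Of all tested genes, 9.12% were lower and 3.4% higher at that p-value, and 11.3% were lower and 6.37% higher without overlap. The lowest fold change was that of Tnfsf11, which encodes RANKL, at -1.16 (edgeR adjusted p = 0.567). Tnfsf11 was at low levels, 2.34, 2.42 and 10.2 CPM with DSS alone, against 4.16, 1.27 and 1.26 CPM with DSS+BV. DSS 3 stood far above the other mice, and DSS+BV 1 lay above DSS 1 and DSS 2. The receptor gene of RANKL, Tnfrsf11a, was at 0.20 (edgeR adjusted p = 0.777).

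The IL-6 family and STAT3 arm induces Cebpb and Cebpd in many cells. Of the 13 genes of this list, 12 had a log2 fold change below 0, beside 51.5% of all tested genes. Lower at an unadjusted p-value under 0.05 were 5, Il6, Osm, Il6st, Osmr and Socs3, beside 9.12% of all tested genes. Il6 averaged 5.79 ± 3.86 CPM without and 0.88 ± 0.274 CPM with the bacterium (SD, n = 3 each). Osm averaged 2.49 ± 0.866 CPM and 0.625 ± 0.276 CPM in the same order. Their log2 fold changes were -2.71 and -1.98, with edgeR adjusted p-values of 0.222 and 0.245. Both genes were at low levels in the DSS+BV mice. Il6st, which encodes the shared receptor subunit of this family, was at 304, 250 and 283 CPM with DSS alone, against 178, 128 and 119 CPM with DSS+BV. Every DSS+BV mouse was under every DSS mouse, at a fitted log2 difference of -0.98 (standard error 0.19, edgeR adjusted p = 0.189). Osmr, the oncostatin M receptor gene, averaged 57.0 ± 22.8 CPM without and 29.8 ± 6.14 CPM with the bacterium (SD, n = 3 each; edgeR adjusted p = 0.340), also without overlap. Socs3, the feedback inhibitor of STAT3, was at 122, 66.1 and 183 CPM with DSS alone, against 70.0, 70.5 and 29.6 CPM with DSS+BV. Its groups overlapped through DSS 2. The median of the list was -0.55, and -0.29 without DSS 3 and -0.84 without DSS+BV 1.

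Known targets of these factors were read in the same way, as descriptions of lists chosen with earlier results known. Of 32 tested inducible NF-κB targets, 30 had a log2 fold change below 0, beside 51.5% of all tested genes. At an unadjusted p-value under 0.05, 14 were lower and 0 higher, beside 9.12% and 3.4%. Groups did not overlap for 13 in the lower direction and for 1, Plau, in the higher, beside 11.3% and 6.37%. None was called, and the median was -0.85, and -0.52 without DSS 3. Ccl2, a monocyte chemokine gene, was at 19.6 ± 8.38 CPM (SD) with DSS alone and 3.73 ± 0.227 CPM with DSS+BV (n = 3 each; log2 fold change -2.39, edgeR adjusted p = 0.123). The granulocyte growth factor gene Csf3 was at 2.57, 3.98 and 5.47 CPM with DSS alone, against 0.330, 0.191 and 0.126 CPM with DSS+BV. The DSS+BV values of Csf3 rest on few counts. Irf1, another classical target, averaged 171 ± 55.1 CPM without and 170 ± 14.8 CPM with the bacterium (SD, n = 3 each; log2 fold change -0.01, edgeR adjusted p = 0.991).

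Acute phase and antimicrobial genes on which C/EBPβ, C/EBPδ and IκBζ are known to act were also examined. This list too was chosen with earlier results known, so its counts partly follow from the choice of genes. All 15 tested genes of this list had a log2 fold change below 0, beside 51.5% of all tested genes, and the median was -3.31. At an unadjusted p-value under 0.05, 14 were lower, beside 9.12% of all tested genes. The same number had lower groups without overlap, beside 11.3%. The called genes of the list were S100a8 and S100a9, which encode calprotectin. Both are also in the neutrophil marker list, as are Mmp8 and Mmp9, the called genes in the list of granule genes. All 4 called genes of the lists are thus neutrophil markers as well. Lcn2, a siderophore-binding protein gene induced jointly by IκBζ and C/EBP factors, was at 35.6, 67.4 and 80.2 CPM with DSS alone, against 8.51, 7.26 and 3.54 CPM with DSS+BV. The lowest DSS mouse was several times above the highest DSS+BV mouse, with a fitted log2 difference of -3.25 (standard error 0.44, edgeR adjusted p = 0.0833). Lcn2 is also in the list of granule genes, and the part of neutrophils in its level was not tested. Ccl20 was the 1 gene of the acute phase list with overlapping groups. Counts of the target and input lists share genes. Over all 108 tested genes of the 9 lists, each counted once, 4 were called, all 4 lower, beside 0.0892% of all tested genes. At an unadjusted p-value under 0.05, 31 were lower and 1 was higher, beside 9.12% and 3.4%. Without DSS 3 the count of 31 was 20, and the count of 4 was 0 without DSS 1, DSS 3, DSS+BV 2 or DSS+BV 3 and 1 without DSS 2.

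**Figure D4:**
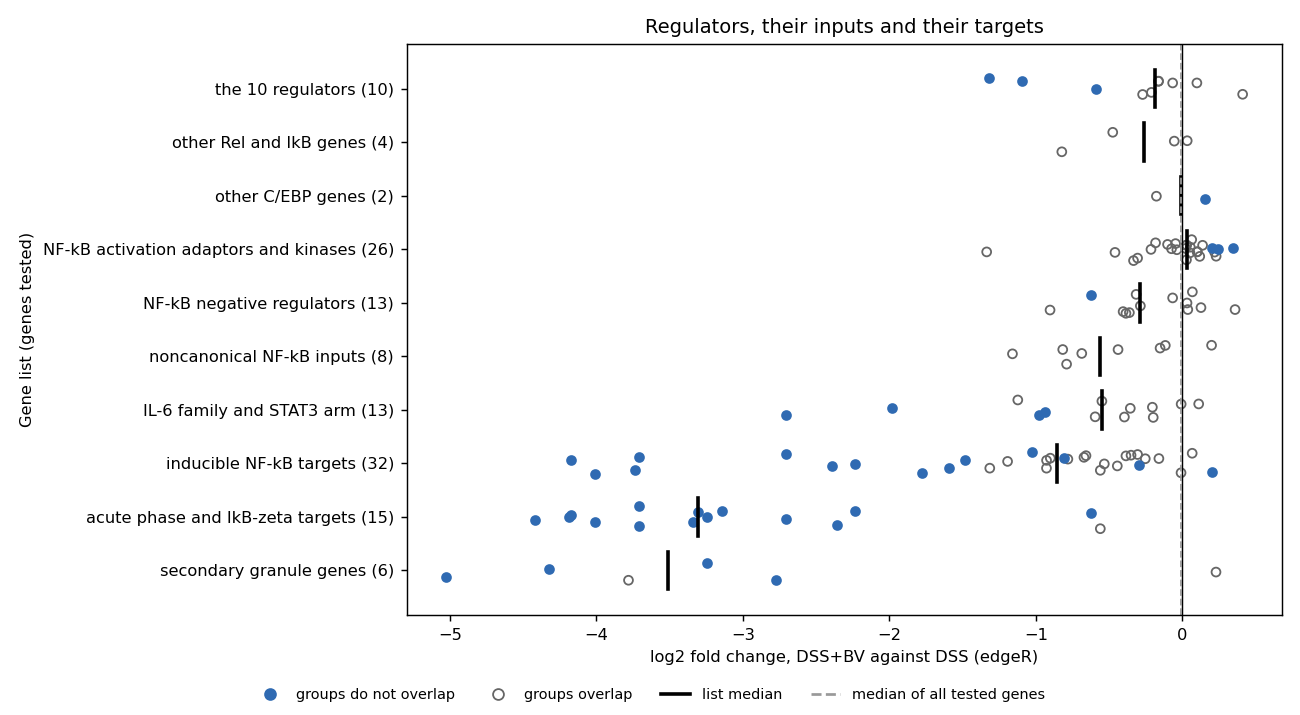
Log2 fold change, DSS+BV against DSS (x axis), of each tested gene of the 10 regulators and of 9 lists of related genes (rows, with the number of genes tested), where filled points are genes whose groups do not overlap and black bars are list medians. The medians of the regulators and of the adaptors and kinases are -0.19 and 0.03. Cebpb and Cebpd lie below -1, as does Card9, whose groups overlap at low levels. The acute phase and granule lists have the lowest medians, -3.31 and -3.51.

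Markers of several cell types moved with the groups, and in bulk tissue fewer cells of a type and less RNA per cell cannot be told apart. Summed fibroblast markers were between 3960 and 4230 CPM in the DSS group and between 1407 and 2093 CPM in the DSS+BV group, and all 10 had a log2 fold change below 0. Summed endothelial markers were between 384 and 514 CPM and between 256 and 339 CPM, also with all 10 below 0. Summed epithelial markers lay between 16405 and 27129 CPM in the DSS group and between 28422 and 45903 CPM in the DSS+BV group, with 15 of 17 above 0. These 3 sums did not overlap between the groups, but Muc2 and Car1 made up between 19.3% and 64.1% of the epithelial sum. Without these 2, left out after their values were seen, the other 15 genes summed to between 13241 and 17306 CPM and between 16500 and 22602 CPM, and the groups overlapped. The part of these 3 cell types in the Cebpb and Cebpd levels was not tested.

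Neutrophil markers, 12 of 13 tested with a log2 fold change below 0 and a median of -3.24, summed to between 532 and 1147 CPM in the DSS group and between 217 and 614 CPM in the DSS+BV group, where the sums overlapped. Ly6g and Cd177 made up between 72.2% and 95.1% of these sums. Without these 2, a choice made after their values were seen, the other 13 genes of the list summed to between 148 and 218 CPM and between 15.2 and 30.1 CPM. Ngp and Camp were at 0 in at least 1 library. Macrophage and monocyte markers, all 15 below 0, summed to between 970 and 2261 CPM in the DSS group and between 623 and 1552 CPM in the DSS+BV group and overlapped. So did the T cell, B and plasma cell and smooth muscle sums, with medians of -0.22, -0.77 and -0.16. The part of these cells in the C/EBP values was not tested.

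**Figure D5:**
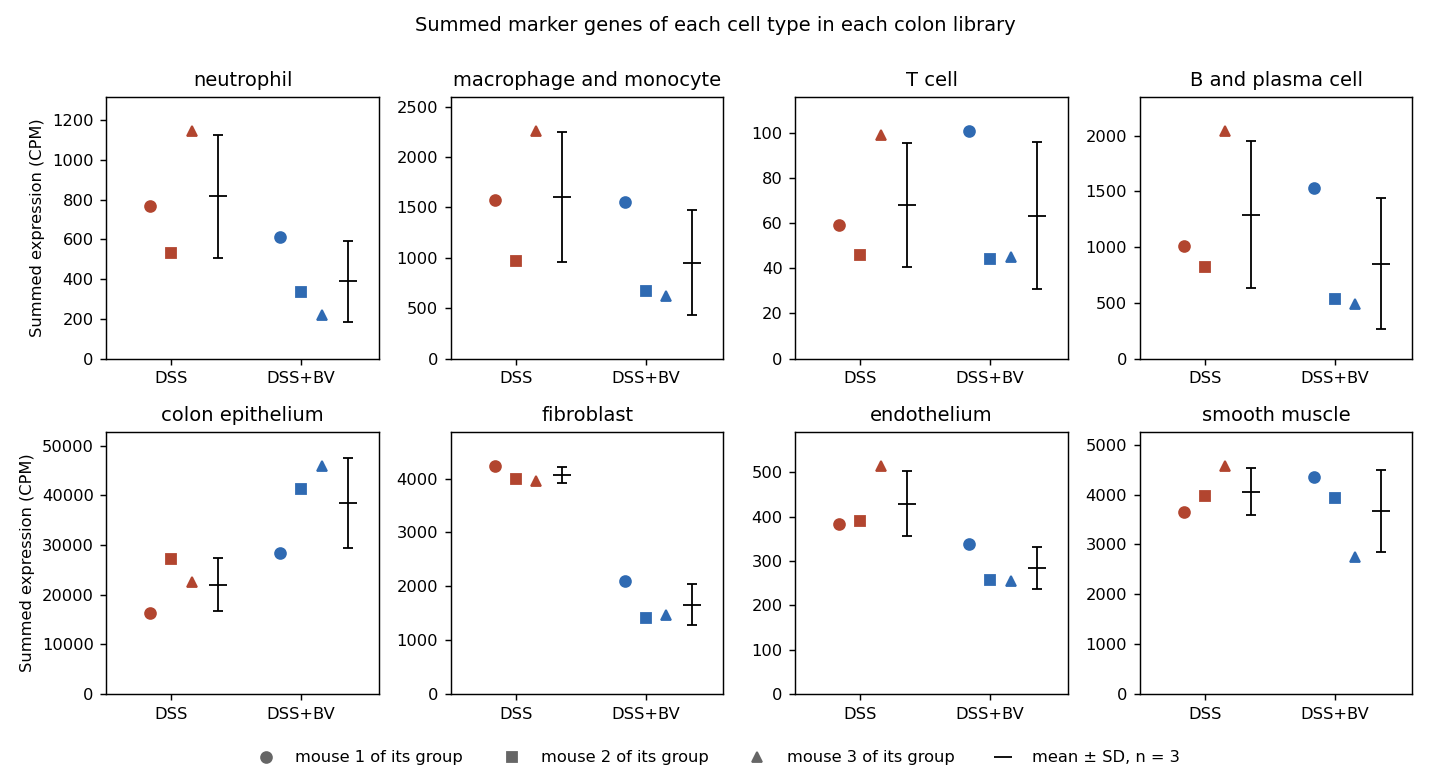
Summed expression of the marker genes of 8 cell types (y axes, CPM from 0) in each DSS and DSS+BV library, with 1 point per mouse and the mean ± SD (n = 3). Fibroblast and endothelial sums are lower and epithelial sums higher in all DSS+BV mice, while the immune cell sums overlap. Without Ly6g and Cd177 the neutrophil sums are between 148 and 218 CPM in DSS and between 15.2 and 30.1 CPM in DSS+BV mice, and without Muc2 and Car1 the epithelial sums overlap.

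The tested genes most like Cebpb and Cebpd, the regulators with the smallest p-values, were sought by the root mean square difference in log2 CPM over the 6 libraries, each gene centred on its own mean. For Cebpb these were Ctps, which encodes a CTP synthase, Rgma and Map7d3, at differences of 0.12, 0.13 and 0.15. Ctps was at 135, 91.8 and 121 CPM with DSS alone, against 42.6, 44.2 and 35.8 CPM with DSS+BV. Like Cebpb, it was lowest in DSS 2 among the DSS mice and lowest in DSS+BV 3 among the DSS+BV mice. For Cebpd the nearest genes were Gypc, Edn1, which encodes the vasoconstrictor endothelin, and Htra3, at differences of 0.10, 0.11 and 0.11. Edn1 was at 22.7, 14.2 and 27.7 CPM with DSS alone, against 10.8, 10.4 and 6.07 CPM with DSS+BV, in the same order of mice as Cebpd. These genes were picked for likeness over the same 6 libraries. The shared order of mice thus largely follows from that choice and is no separate result.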

How the data were processed

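RNA from the colon of 3 DSS and 3 DSS+BV mice was sequenced, 1 library per mouse. The authors deposited 1 table of expected counts per gene from RSEM, with no scaling between libraries. The submitters' processing notes name HISAT2 2.1.0, Bowtie2 2.2.5, RSEM 1.2.8 and GRCm38.p6. Expected counts were rounded to whole numbers, and 1573 genes had a value that was not whole in at least 1 library, none of them one of the 10 regulators. Genes were kept with filterByExpr (minimum count 10, minimum total 15), scaled with TMM factors and tested by quasi-likelihood F-tests (edgeR 4.0.16, R 4.3.3). Benjamini-Hochberg adjustment ran over all tested genes. The standard error is the log2 fold change divided by the square root of the F statistic. Library totals, between 15293276 and 17254343 expected counts, set the precision of low genes. Ratios were compared with exact permutation tests.

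The 10 regulators and the gene lists were chosen with earlier results of these data known. Named genes are the 10 regulators, from each list the called genes, up to 3 further genes with the smallest p-values and 1 in the direction opposite to the list median, the nearest genes to the 2 regulators with the smallest p-values, and cell type markers. Genes making up a count of 5 or fewer, and Irf1 and Ccl20, were named after their values were seen. Il36g, Trac, Trbc1 and Trbc2 were not matched in the table. The alternatives were DESeq2 1.42.0 on all genes with a count, RLE and upper-quartile factors, 2 other filters, a robust prior, a replicate block, no fold threshold, other pseudocounts for ratios, and libraries left out. Python 3.11.15 with matplotlib 3.10.9 made the figures.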

Additional observations from a re-analysis of the deposited data

How the results depend on the processing

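The union of exons as gene length was chosen after seeing the data. Of the 10 regulators, 8 kept the direction of their log2 fold change in each of the 14 other fits. Nfkb1 was at 0.0068 without DSS 3 and Cebpa at -0.061 without DSS+BV 3. Cebpb was called only with DESeq2, at -1.30, which made 1 lower regulator called. No regulator was called with any library left out or with the adjusted p-value alone (0 in each direction). With 1 library left out, the log2 fold changes ranged from -0.06 to 0.24 (Cebpa), -1.44 to -1.19 (Cebpb), -1.30 to -0.79 (Cebpd), -0.11 to 0.01 (Nfkb1), -0.32 to -0.02 (Nfkb2), -0.25 to -0.07 (Rela), -0.41 to -0.06 (Relb), -0.75 to -0.22 (Nfkbia), -0.33 to -0.02 (Nfkbiz) and 0.20 to 0.57 (Bcl3). The regulators lower at an unadjusted p-value under 0.05 numbered from 1 (Cebpb, without DSS 3) to 3 (with Nfkbia, without DSS 1 or without DSS 2). The cause was not tested.

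Among all genes, 13 were called lower and 0 higher. DESeq2 called 281 and 46, the fit without DSS 2 and DSS+BV 1, which lay with the other group, called 333 and 282, and fits with 1 library left out called 0 to 3 and 0 to 4. Of the listed genes, 4 were called lower, against 20 with DESeq2, 17 without DSS 2 and DSS+BV 1, and 0 to 3 with 1 library left out. At an unadjusted p-value under 0.05 they numbered 20 to 36 lower and 0 to 2 higher with 1 library left out, and 0 higher with upper-quartile factors, where the main counts were 31 and 1.

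Same-numbered libraries were not paired by the labels, and their deviations from the group means correlated at 0.27, 0.25 and -0.30 across genes, where DSS 1 but neither DSS 2 nor DSS 3 correlated best with its own number. With the replicate number as a block, 0 genes and 0 listed genes were called lower, 0 listed genes were higher at an unadjusted p-value under 0.05, and Cebpb was at -1.32 (edgeR adjusted p = 0.310).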

Other observations

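Secondary granule genes, which C/EBPε is known to drive in maturing neutrophils, were a further list chosen with earlier results known. Cebpe itself had 22 counts over all 6 libraries of both groups and did not pass the filter. Its relation to these genes was not tested. Of 6 tested genes of the list, 5 had a log2 fold change below 0, beside 51.5% of all tested genes. Mmp8 and the gelatinase gene Mmp9 were the 2 called, beside 0.0892%. Mmp8, which encodes a neutrophil collagenase, was at 10.4, 8.58 and 9.84 CPM with DSS alone, against 0.660, 0.319 and 0.443 CPM with DSS+BV, without overlap. The lactoferrin gene Ltf was at 18.3, 0.373 and 34.0 CPM with DSS alone, against 2.11, 0.764 and 0.948 CPM with DSS+BV. DSS 2 was the lowest of all 6 libraries for Ltf, although it was at 8.58 CPM for Mmp8. Cd177 was the gene of the list above 0, between 74.1 and 308 CPM in the DSS group and between 99.4 and 282 CPM in the DSS+BV group.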
